A study of Mus musculus with 6 samples.

Results

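Cadherins are calcium-dependent adhesion proteins that span the cell membrane and hold cells of like kind together. The genes described here are the protein-coding mouse genes named Cdh or Pcdh plus a number, or Pcdh plus a code of the alpha, beta or gamma cluster, with Cdh1 and Cdh5 left out. Among the 22180 genes with an array row of their own, 56 met this rule, and where a gene had several rows the brightest over the 6 arrays was used. They comprised 16 classical cadherins, 5 other cadherins, 23 clustered protocadherins and 12 non-clustered protocadherins, the last including Pcdh11x.

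The arrays measured RNA of pooled mouse hearts (strain C57BL/6) at embryonic day 9.5. The Hdac3-Isl1KO group had 3 pools, of genotype Hdac3-flox/flox; Isl1-Cre, and the Hdac3-flox/flox group had 3 pools, with the floxed alleles and no Cre. Isl1-Cre acts in Isl1-expressing cells, among them the second heart field progenitors of the outflow tract and right ventricle, so other heart cells keep the gene. Since the control pools carried no Cre, effects of the Cre allele and of Hdac3 loss cannot be told apart. Values are the authors' RMA log2 values, and a log2 difference is the Hdac3-Isl1KO mean minus the Hdac3-flox/flox mean.

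Classical cadherins bind catenins through their cytoplasmic tail and so join adhesion to the actin cytoskeleton. Their type I members are named for the tissues in which they were found, while most type II members are studied in the nervous system or in mesenchyme. In the embryonic heart N-cadherin (Cdh2) holds cardiac muscle cells together. Protocadherins have other cytoplasmic tails. The clustered ones are chosen promoter by promoter in single neurons and serve self-recognition, and the non-clustered ones act in cell sorting, migration and synapse formation.

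Of the 56 genes 1 changed, the type II cadherin gene Cdh11, which fell in Hdac3-Isl1KO hearts, and 0 rose (limma, adjusted p under 0.05 over all genes). Over all genes 0.428% were called, 0.230% as higher and 0.198% as lower. At an unadjusted limma p under 0.05 there were 15 of the 56, or 26.8%, where 14.5% of all genes passed. Of these, 5 were higher (8.93%, against 6.57% of all genes) and 10 lower (17.9%, against 7.96%). The arrays of the groups did not overlap for 15 of the 56 genes (26.8%), against 21.8% of all genes. The Hdac3-Isl1KO arrays lay above in 5 of these (8.93%, against 9.41%) and below in 10 (17.9%, against 12.4%). The median log2 difference was -0.026 over the 56 genes and 0.000094 over all genes, while the median size of the difference, whatever its sign, was 0.15 and 0.10. These are descriptions of a family chosen with earlier results of these arrays known.

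**Figure D1:**
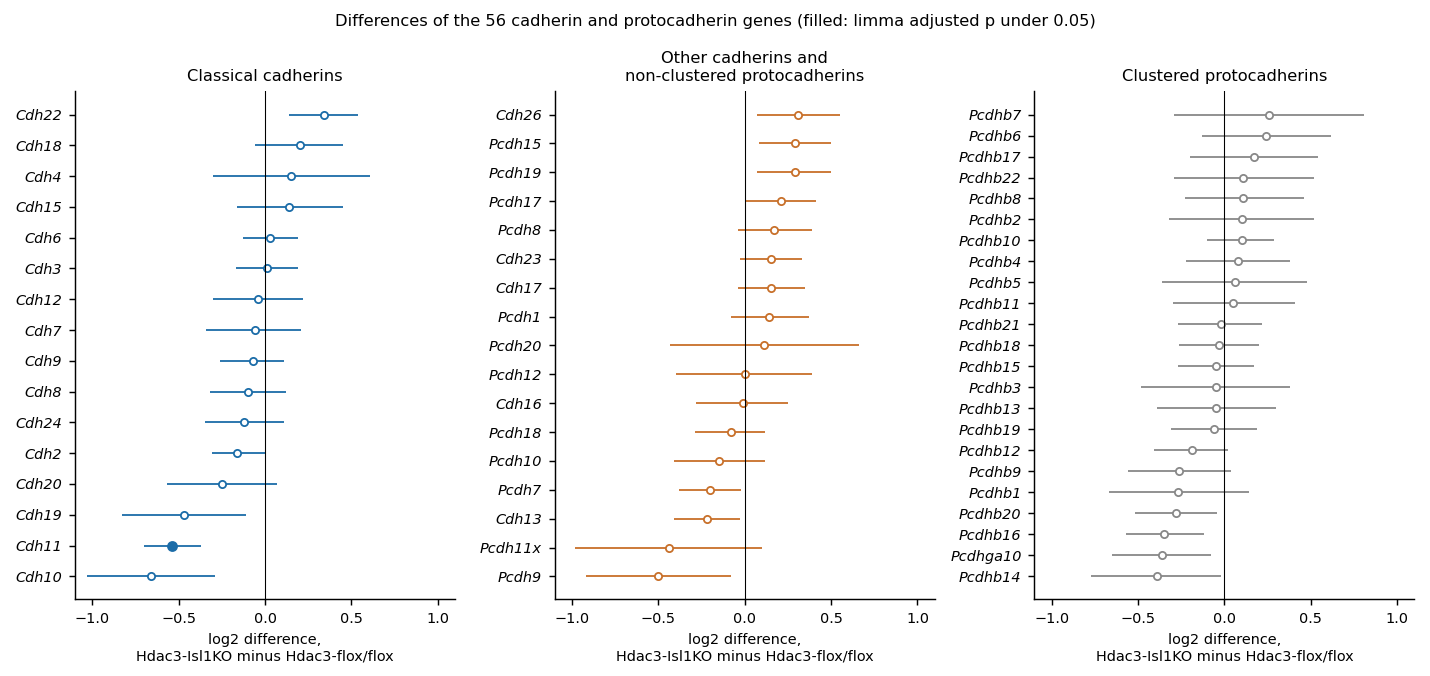
Log2 difference (Hdac3-Isl1KO minus Hdac3-flox/flox, x axis) of each of the 56 genes, with the 95% interval of the limma fit as a line, in 3 panels by class. Cdh11, at -0.54, is the single filled point (adjusted p under 0.05), and the differences run from -0.66 for Cdh10 to 0.34 for Cdh22.

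Facts of the whole array set bear on these values. Array medians lay between 5.64 and 5.71, and correlations between arrays between 0.98 and 0.989, with Hdac3-flox/flox replicate 2 the lowest on average. Hdac3 read 9.11, 9.20 and 9.31 in Hdac3-Isl1KO, against 9.67, 9.73 and 9.64 in Hdac3-flox/flox, a log2 difference of -0.47 (95% interval -0.66 to -0.29, limma adjusted p = 0.0636). The position of its probes within the gene was not examined, and part of the heart keeps Hdac3, so the labels are checked only in part. Cardiac muscle markers were bright in both groups: all 12 lay above the median row, 5.66. Their list mean was 11.40 to 11.43 in Hdac3-Isl1KO, against 11.49 to 11.52 in Hdac3-flox/flox. List means of 5 other marker sets did not overlap between the groups either, those of epicardium, epithelium, trophoblast, yolk sac endoderm with liver, and blood. The blood list was apart by a narrow margin, at 9.13 to 9.24 in Hdac3-Isl1KO, against 9.09 to 9.12 in Hdac3-flox/flox. Of its 5 members 3 lay above 0 and 2 below, and 0 were called. At an unadjusted limma p under 0.05 there were 2 (40%, against 14.5% of all genes). The other 4 lists are given beside the genes below.

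Among the classical cadherins Cdh11, or OB-cadherin, is an adhesion gene of mesenchymal cells and is found in the mesenchyme of heart cushions and valves. Its log2 values were 8.05, 8.02 and 8.15 in Hdac3-Isl1KO, against 8.66, 8.58 and 8.59 in Hdac3-flox/flox. Each Hdac3-Isl1KO array lay below each Hdac3-flox/flox array, with a gap wider than the range within either group. The means were 8.07 ± 0.07 and 8.61 ± 0.04 (SD, n = 3 each), which is 1.45-fold lower in Hdac3-Isl1KO (log2 difference -0.54, 95% interval -0.70 to -0.37, limma adjusted p = 0.0395). In bulk tissue fewer cells of a type and less RNA per cell cannot be told apart. The call was lost with any 1 array left out (limma adjusted p from 0.097 to 0.192, log2 difference from -0.58 to -0.51). It was also lost when all array rows, unnamed ones included, were tested together (limma adjusted p = 0.11). Over all settings run, the limma adjusted p of Cdh11 lay between 0.000554, with a prior variance trended on mean signal, and 0.197.

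The list mean of 6 measured cushion mesenchyme markers overlapped between the groups, where Cdh11 did not. It was 7.88 to 7.94 in Hdac3-Isl1KO, against 7.84 to 7.97 in Hdac3-flox/flox. None of the 6 was called, 0 had an unadjusted limma p under 0.05, and the median log2 difference was 0.022. All 6 lay above the median row. Single markers did not overlap in 2 of 6 cases (33.3%, against 21.8% of all genes and 29.5% of those above that row). These were Postn (-0.15) and Tbx20 (-0.10), both lower in Hdac3-Isl1KO. The list mean of 6 epicardial markers was lower in the same arrays as Cdh11. It was 7.92 to 7.94 in Hdac3-Isl1KO, against 8.32 to 8.44 in Hdac3-flox/flox. All 6 epicardial markers lay above the median row. The groups did not overlap for 4 of the 6, all lower in Hdac3-Isl1KO. These 4 were Upk3b, Upk1b, Aldh1a2 (-0.66) and Tbx18 (-0.19). That share of 66.7% stands against 21.8% of all genes and 29.5% of those above the median row. Over all genes 2 fell, Upk3b (-0.94) and Upk1b (-0.72, limma adjusted p = 0.0268), while Wt1, a defining transcription factor of the epicardium, differed by 0.00 and Tcf21 by -0.19, both with overlapping groups. Their part in the value of Cdh11 was not tested.

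The largest difference of the family belonged to Cdh10, a type II cadherin of the nervous system. It read 4.63, 4.16 and 4.42 in Hdac3-Isl1KO, against 4.87, 5.01 and 5.31 in Hdac3-flox/flox. The groups did not overlap, but each was spread widely (4.40 ± 0.23 and 5.06 ± 0.23, SD, n = 3 each). The log2 difference of -0.66 (95% interval -1.03 to -0.29) did not pass (limma adjusted p = 0.151). The signal was dim, with the Hdac3-Isl1KO mean below the 25th percentile row, 4.45.

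Cdh19, a type II cadherin of Schwann cell precursors, was also lower in every Hdac3-Isl1KO array, at 3.45, 3.87 and 3.68 against 3.93, 4.39 and 4.09 in Hdac3-flox/flox. Its log2 difference was -0.47 (95% interval -0.83 to -0.11, limma adjusted p = 0.24), and all its values lay below the 25th percentile row, 4.45, where RMA compresses differences. The 5 neural crest markers, of the lineage that gives Schwann cells, overlapped between the groups, with list means of 5.36 to 5.53 in Hdac3-Isl1KO, against 5.19 to 5.49 in Hdac3-flox/flox.

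In the other direction, Cdh22, a type II cadherin of the brain, read 5.66, 5.88 and 5.82 in Hdac3-Isl1KO, against 5.46, 5.36 and 5.53 in Hdac3-flox/flox. The groups were apart, and its log2 difference of 0.34 (95% interval 0.14 to 0.54) was the highest of the 56, without passing the test (limma adjusted p = 0.173).

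N-cadherin, Cdh2, differed little in size but in the same direction in every array. Its log2 values were 11.14, 11.22 and 11.18 in Hdac3-Isl1KO, against 11.35, 11.39 and 11.27 in Hdac3-flox/flox. The log2 difference was -0.16 (95% interval -0.31 to 0.00, limma adjusted p = 0.359), or 1.11-fold lower. A dimmer row of Cdh2 differed by -0.09, with overlapping groups. Of the 12 cardiac muscle markers 10 had negative differences, with a median of -0.10. None was called, and 3 had an unadjusted limma p under 0.05, 2 lower and 1 higher. That is 25%, against 14.5% of all genes and 18.1% of those above the median row. The Hdac3-Isl1KO arrays lay wholly below for 9 of the 12 (75%, against 12.4% of all genes and 18.7% of those above the median row). They lay wholly above for 1 (8.33%, against 9.41% and 10.9%).

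**Figure D2:**
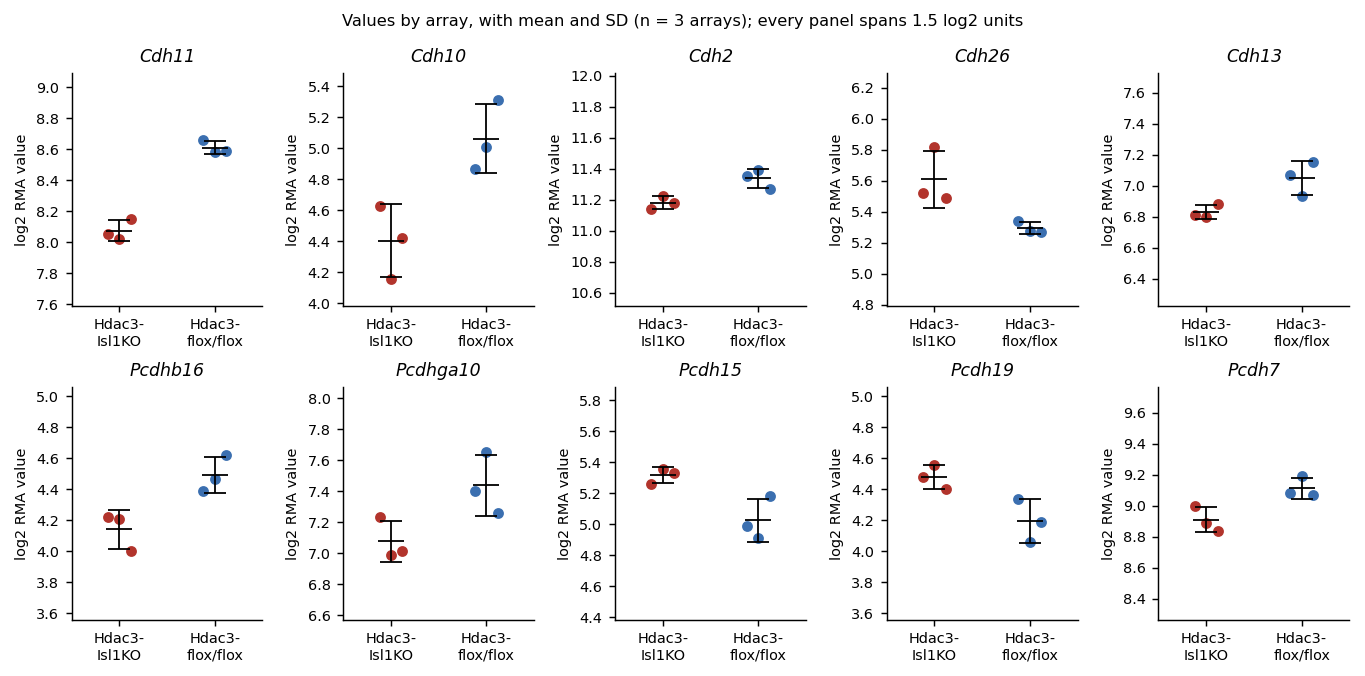
Log2 RMA values of the 10 genes with full values (y axis, each panel 1.5 log2 units high) in the 3 Hdac3-Isl1KO and 3 Hdac3-flox/flox arrays, with mean and SD. Cdh11 shows the widest gap relative to its spread, with 8.02 to 8.15 in Hdac3-Isl1KO, against 8.58 to 8.66 in Hdac3-flox/flox.

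The other type I members did not separate the groups. P-cadherin, Cdh3, first found in placenta, read 8.38, 8.54 and 8.51 in Hdac3-Isl1KO, against 8.40, 8.47 and 8.53 in Hdac3-flox/flox, a log2 difference of 0.01 (95% interval -0.17 to 0.19). All 7 trophoblast markers measured were higher in the same arrays, the least of them Hand1 (log2 difference 0.16), which was not called. The trophoblast list mean was 7.41 to 7.53 in Hdac3-Isl1KO, against 6.16 to 6.33 in Hdac3-flox/flox. Of the 7, 6 were called as higher (85.7%, against 0.230% of all genes). R-cadherin, Cdh4, differed by 0.15 (95% interval -0.30 to 0.61), with 0.09 for its dimmer row, and M-cadherin, Cdh15, the muscle satellite cell cadherin, by 0.14 (95% interval -0.16 to 0.45).

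Most of the remaining type II members overlapped between the groups with log2 differences close to 0. Cdh6, first found in kidney, had the narrowest interval among them, at 7.69, 7.75 and 7.71 in Hdac3-Isl1KO, against 7.66, 7.63 and 7.76 in Hdac3-flox/flox (log2 difference 0.03, 95% interval -0.13 to 0.19). Cdh20 differed by -0.25 (95% interval -0.57 to 0.07) and Cdh18 by 0.20 (95% interval -0.06 to 0.45). The log2 differences were -0.12 for Cdh24, -0.10 for Cdh8, -0.07 for Cdh9, -0.06 for Cdh7 and -0.04 for Cdh12. Cdh9 and Cdh12 stayed below the 25th percentile row in every array.

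Counted by type, 3 of 4 type I members lay above 0 and 9 of 12 type II members below 0. The median log2 difference was 0.075 for type I and -0.086 for type II. The mean of the 12 type II rows was 5.33, 5.37 and 5.43 in Hdac3-Isl1KO, against 5.50, 5.51 and 5.56 in Hdac3-flox/flox. For the 4 type I rows it was 7.62, 7.88 and 7.83 in Hdac3-Isl1KO, against 7.68, 7.73 and 7.80 in Hdac3-flox/flox. The type II means did not overlap and the type I means did, and Cdh10, Cdh11 and Cdh19 had the lowest differences among the type II genes. A difference between the types was not tested.

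The other cadherins are the remaining Cdh genes, those not listed as type I or type II. T-cadherin, Cdh13, is held to the membrane by a lipid anchor and acts in blood vessels and heart muscle as a receptor for adiponectin. It read 6.81, 6.80 and 6.88 in Hdac3-Isl1KO, against 7.07, 6.93 and 7.15 in Hdac3-flox/flox. The groups did not overlap, and the log2 difference of -0.22 (95% interval -0.41 to -0.03) did not pass (limma adjusted p = 0.282). The 7 endothelial and endocardial markers had list means of 8.79 to 8.81 in Hdac3-Isl1KO, against 8.79 to 8.86 in Hdac3-flox/flox, with 0 called and 0 at an unadjusted limma p under 0.05.

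Cdh26, a cadherin of epithelia, lay the other way, at 5.52, 5.82 and 5.49 in Hdac3-Isl1KO, against 5.34, 5.28 and 5.27 in Hdac3-flox/flox. Its groups were apart, with a log2 difference of 0.31 (95% interval 0.07 to 0.55, limma adjusted p = 0.244). All 8 epithelial and endodermal markers were higher in the same arrays, with list means of 6.33 to 6.37 in Hdac3-Isl1KO, against 5.95 to 6.00 in Hdac3-flox/flox. None of the 8 was called, and 7 had an unadjusted limma p under 0.05 (87.5%, against 14.5% of all genes). The 7 yolk sac endoderm and liver markers were also all higher, with means of 6.01 to 6.06 in Hdac3-Isl1KO, against 5.38 to 5.64 in Hdac3-flox/flox. Of the 7, 1 was called, Fgb (0.93, limma adjusted p = 0.0204), or 14.3%, against 0.428% of all genes. At an unadjusted limma p under 0.05 there were 4 (57.1%, against 14.5%), and 6 did not overlap between the groups (85.7%, against 21.8%). The part of either list in the value of Cdh26 was not tested.

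The remaining members of this class are the intestinal Cdh17 (log2 difference 0.15), the kidney Cdh16 (-0.01) and Cdh23 (0.15), which forms the upper part of the tip links of hair cells in the inner ear. Their groups overlapped. The class median was 0.15, with 3 of 5 members above 0.

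**Figure D3:**
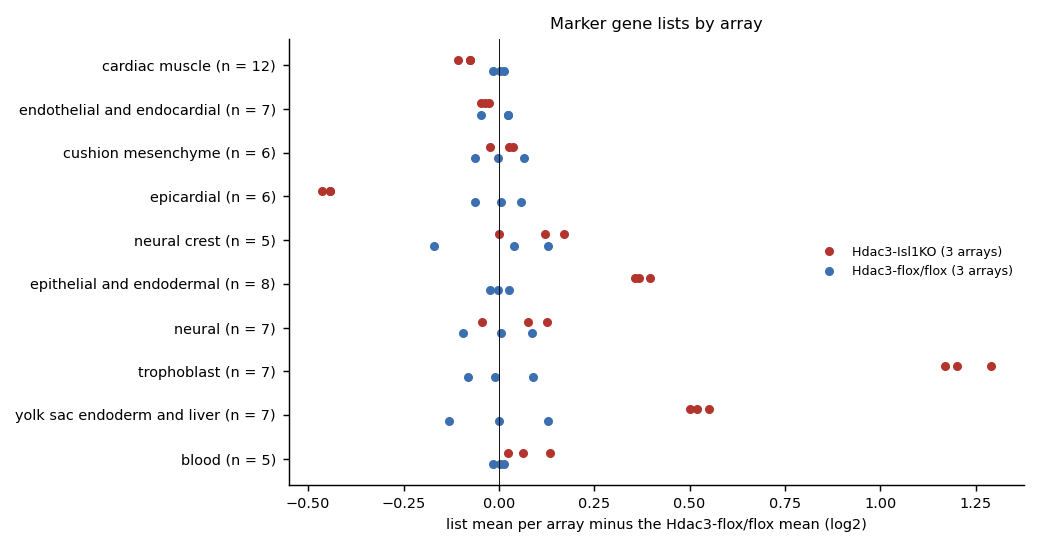
Mean of each marker list per array, as the log2 distance from the Hdac3-flox/flox mean of that list (x axis). The Hdac3-Isl1KO arrays lie above all Hdac3-flox/flox arrays for the trophoblast (7.41 to 7.53 against 6.16 to 6.33), yolk sac endoderm, epithelial and, by a narrow margin, blood lists, and below them for the epicardial and cardiac muscle lists.

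Among the non-clustered protocadherins 0 of 12 were called, and 5 had an unadjusted limma p under 0.05 (41.7%, against 14.5% of all genes), 3 of them higher and 2 lower. The class lay evenly around 0, with 6 members above and 6 below and a median log2 difference of 0.054.

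The 3 higher ones were Pcdh15, Pcdh19 and Pcdh17. Pcdh15, the lower part of the tip link that pairs with Cdh23, read 5.26, 5.36 and 5.33 in Hdac3-Isl1KO, against 4.99, 4.91 and 5.18 in Hdac3-flox/flox. The groups were apart, with a log2 difference of 0.29 (95% interval 0.08 to 0.50, limma adjusted p = 0.223). A second, dimmer row of Pcdh15 gave the same log2 difference, 0.29, at 4.37, 4.38 and 4.35 in Hdac3-Isl1KO, against 4.22, 3.94 and 4.10 in Hdac3-flox/flox. It was the one member with 2 rows that were both apart.

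Pcdh19, an X-linked gene whose human counterpart is mutated in an epilepsy, read 4.48, 4.56 and 4.40 in Hdac3-Isl1KO, against 4.34, 4.06 and 4.19 in Hdac3-flox/flox. Its log2 difference was also 0.29 (95% interval 0.07 to 0.50, limma adjusted p = 0.243), close to the dim end of the arrays. Pcdh17, which acts in axon growth and synapses, differed by 0.21 (95% interval 0.00 to 0.41, limma adjusted p = 0.338), with groups apart.

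On the lower side, Pcdh7 had the brightest row of the class. It is a protocadherin first described in brain and heart, and it read 9.0, 8.89 and 8.84 in Hdac3-Isl1KO, against 9.08, 9.19 and 9.07 in Hdac3-flox/flox. The groups did not overlap, with a log2 difference of -0.20 (95% interval -0.38 to -0.02, limma adjusted p = 0.298). Pcdh9, a neural protocadherin, differed more, by -0.50 (95% interval -0.92 to -0.08, limma adjusted p = 0.271), but its groups overlapped at 3.65, 3.85 and 4.19 in Hdac3-Isl1KO, against 4.11, 4.59 and 4.49 in Hdac3-flox/flox.

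The other members overlapped between the groups. Pcdh11x, also X-linked, was spread from 3.73 to 4.04 in Hdac3-Isl1KO and from 3.86 to 4.81 in Hdac3-flox/flox (log2 difference -0.44, 95% interval -0.98 to 0.10). Pcdh8, known for its part in the segmentation of paraxial mesoderm, differed by 0.17, and Pcdh1, of airway epithelium, by 0.14. The log2 differences were -0.15 for Pcdh10, -0.08 for Pcdh18 and 0.11 for Pcdh20. Pcdh12, a protocadherin of endothelium and trophoblast, had 6.42, 6.37 and 6.97 in Hdac3-Isl1KO, against 6.62, 6.71 and 6.44 in Hdac3-flox/flox. These overlapped fully (95% interval -0.40 to 0.39), in contrast to the trophoblast markers above.

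**Figure D4:**
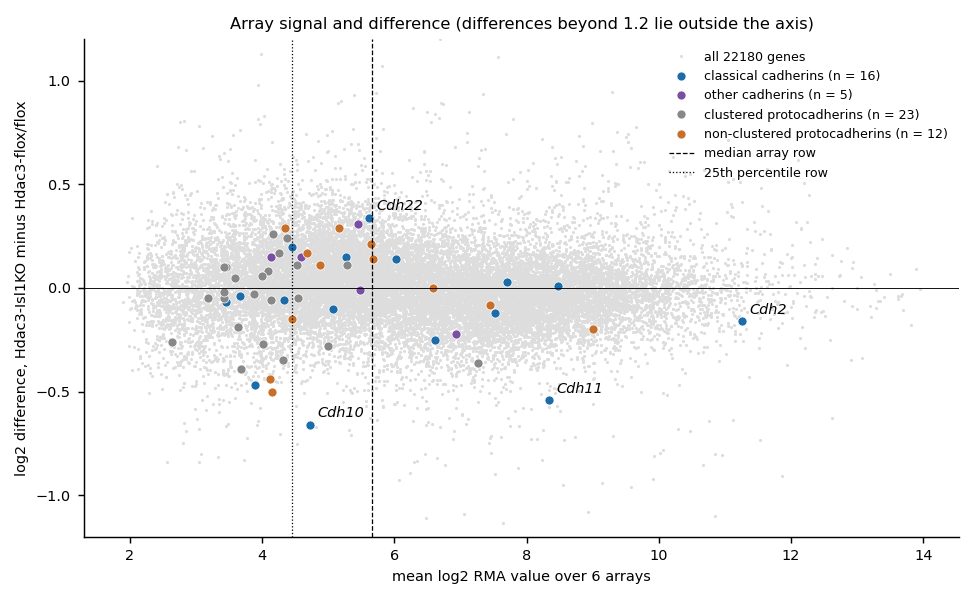
Log2 difference (Hdac3-Isl1KO minus Hdac3-flox/flox, y axis) against the mean log2 value over 6 arrays (x axis) for the 56 genes, coloured by class, over all 22180 genes in grey. Of the 56, 27 lie left of the dotted line at the 25th percentile row (4.45) and 13 right of the dashed line at the median row (5.66).

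The clustered protocadherins lie in 3 neighbouring gene clusters. Beta-cluster genes each have 1 exon of their own, whereas alpha and gamma genes splice a first exon of their own to exons shared by their whole cluster. Of the 23 members 22 were beta genes, Pcdhb1 to Pcdhb22, and 1 was the gamma gene Pcdhga10. Whether the shared exons set which genes have a row of their own was not tested. A row annotated to 9 alpha-cluster genes and a row annotated to 9 gamma-cluster genes name no single gene and lie outside the rule. The alpha row read 5.89, 5.95 and 5.79 in Hdac3-Isl1KO, against 5.77, 5.90 and 5.66 in Hdac3-flox/flox, with a log2 difference of 0.10. The gamma row read 6.13, 6.14 and 5.81 in Hdac3-Isl1KO, against 6.25, 5.89 and 6.03 in Hdac3-flox/flox, with a log2 difference of -0.04. Both overlapped between the groups.

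The beta genes gave little signal in hearts of this age. Of the 22, 18 had a mean below the 25th percentile row and 0 lay above the median row. With no detection calls used here, how far these values exceed background is not known. None was called, 3 had an unadjusted limma p under 0.05, and 10 lay above 0 and 12 below, with a median log2 difference of -0.026. Their closely related sequences mean that probes may read several beta genes in common.

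Over the 23 clustered members 4 had an unadjusted limma p under 0.05, all lower in Hdac3-Isl1KO. That is 17.4%, against 14.5% of all genes in either direction and 7.96% in that direction. Without Pcdhga10, for which a second row gave the opposite sign, it is 3 of 22, or 13.6%. Those 22 genes lie at or below the median row. There 9.93% of all genes passed in either direction and 3.47% in that direction. Pcdhb16 read 4.22, 4.21 and 4.0 in Hdac3-Isl1KO, against 4.39, 4.47 and 4.62 in Hdac3-flox/flox, with groups apart (log2 difference -0.35, 95% interval -0.57 to -0.12, limma adjusted p = 0.192). Pcdhb20 read 4.96, 4.90 and 4.70 in Hdac3-Isl1KO, against 5.16, 4.99 and 5.26 in Hdac3-flox/flox, apart by a narrow margin (log2 difference -0.28). Pcdhb14 had the lowest difference of the class, -0.39 (95% interval -0.77 to -0.02), with overlapping groups.

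The fourth was Pcdhga10, whose row was the only one of the class above the median row. It read 7.23, 6.99 and 7.01 in Hdac3-Isl1KO, against 7.40, 7.65 and 7.26 in Hdac3-flox/flox, close to touching (log2 difference -0.36, 95% interval -0.65 to -0.08, limma adjusted p = 0.255). A much brighter row annotated to both Pcdhga10 and the predicted gene Gm19774 went the other way, at 11.99, 11.97 and 12.04 in Hdac3-Isl1KO, against 11.54, 11.62 and 11.60 in Hdac3-flox/flox. Rows that bear the name Pcdhga10 therefore disagreed in sign, and its direction is uncertain.

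The fifth lowest difference of the class was that of Pcdhb1 (-0.27), and the highest were those of Pcdhb7 (0.26), Pcdhb6 (0.24), Pcdhb17 (0.17), Pcdhb22 (0.11) and Pcdhb8 (0.11). Their groups overlapped, with intervals that held 0. In the order of their numbers, Pcdhb4 to Pcdhb8 all lay above 0, with log2 differences from 0.06 to 0.26. Pcdhb12 to Pcdhb16 all lay below 0, from -0.39 to -0.05, and Pcdhb17 beside them lay at 0.17. These runs were noticed after the values were seen and were not tested.

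**Figure D5:**
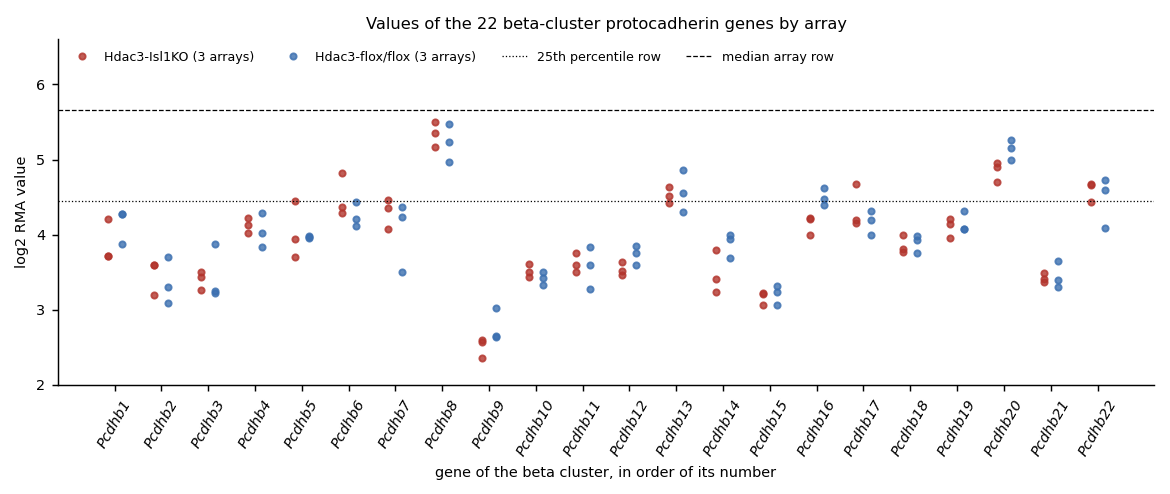
Log2 RMA values (y axis) of the 22 beta-cluster genes in the order of their numbers (x axis), 3 arrays per group. All lie under the dashed median row (5.66), most under the dotted 25th percentile row (4.45), and the groups interleave at most genes.

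Set side by side, the classes had median log2 differences of -0.069 (classical, 10 of 16 below 0), 0.15 (other cadherins, 2 of 5 below 0), 0.054 (non-clustered, 6 of 12 below 0) and -0.029 (clustered, 13 of 23 below 0). The classical members averaged 5.98 ± 0.06 in Hdac3-Isl1KO, against 6.08 ± 0.04 in Hdac3-flox/flox, and the clustered members 4.08 ± 0.02 in Hdac3-Isl1KO and 4.12 ± 0.06 in Hdac3-flox/flox (SD over 3 arrays each). The 3 classical means of Hdac3-Isl1KO, 5.91 to 6.03, lay just below those of Hdac3-flox/flox, 6.04 to 6.12. Means of the other cadherins were also apart, in the opposite direction, at 5.32 to 5.41 in Hdac3-Isl1KO, against 5.27 to 5.29 in Hdac3-flox/flox. The clustered and the non-clustered means overlapped. Median sizes of the difference were 0.15 for classical, 0.11 for clustered and 0.19 for non-clustered members. These classes differ in brightness, with median row values of 5.44, 4.01 and 5.02. Among the 13 members above the median row 4 had an unadjusted limma p under 0.05, all lower (30.8%), against 18.1% of all genes above it in either direction and 11.5% in that direction. They were Cdh11, Cdh13, Pcdh7 and Pcdhga10, and without Pcdhga10, whose direction is uncertain, 3 of 12 remained (25%). Among the 43 members at or below the median row 11 passed (25.6%), against 9.93% of all genes at or below it. Of these, 5 were higher (11.6%, against 6.45%) and 6 lower (14%, against 3.47%).

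Genes that work with cadherins were examined in 8 lists of 93 measured genes, of which 0 were called (limma, adjusted p under 0.05). At an unadjusted limma p under 0.05 there were 3 higher and 6 lower (9.68%, against 14.5% of all genes), and the median log2 difference was -0.0097.

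The catenins and armadillo proteins, which tie classical cadherins to actin, stayed close to the controls. None of 15 had an unadjusted limma p under 0.05, 11 lay below 0, and the differences ran from -0.18 to 0.13. Those with the smallest p were Ctnna2 (-0.18), Ctnnb1 (-0.12), the gene of beta-catenin, and Ctnna3 (-0.10), the alpha-catenin of heart muscle. Ctnna3 read 7.93, 7.95 and 7.93 in Hdac3-Isl1KO, against 8.07, 8.05 and 8.0 in Hdac3-flox/flox, a small gap without overlap.

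Of the 12 desmosomal cadherins and plaque genes, the pair known from heart muscle desmosomes, Dsc2 and Dsg2, were lower in every Hdac3-Isl1KO array. Dsc2 read 8.13, 7.90 and 7.86 in Hdac3-Isl1KO, against 8.41, 8.49 and 8.38 in Hdac3-flox/flox (log2 difference -0.46, 95% interval -0.68 to -0.25, limma adjusted p = 0.101). Dsg2 read 8.26, 8.23 and 8.28 in Hdac3-Isl1KO, against 8.54, 8.50 and 8.53 in Hdac3-flox/flox (log2 difference -0.27, 95% interval -0.42 to -0.12, limma adjusted p = 0.142). The epithelial Dsc3 differed by 0.32 in the other direction, near the 25th percentile row. The list as a whole did not fall: 7 of 12 lay above 0, with a median log2 difference of 0.038. Dsp, a plaque gene with a bright row, differed by 0.03, with overlapping groups.

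The 17 atypical and giant cadherins had 1 member with an unadjusted limma p under 0.05, Cdhr4 (-0.26), followed by Clstn1 (-0.16), a calsyntenin, and Fat4 (0.20), of planar polarity. Of 7 nectins and related adhesion genes Nectin1 differed most, by 0.31 (95% interval 0.13 to 0.50, limma adjusted p = 0.16), with Nectin4 at 0.17 and Cadm1 at 0.10.

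The 7 measured cadherin repressors, which bind E-boxes in cadherin promoters, had 5 members above 0. Snai1 (0.17), Tcf3 (0.20) and Snai3 (0.22) had the smallest p, with groups apart and limma adjusted p of 0.323 for Snai1. Among 10 genes of cadherin shedding and cleavage, the sheddase Adam10 differed by -0.22 (95% interval -0.38 to -0.06, limma adjusted p = 0.218), the membrane protease Mmp14 by -0.25 and Adam9 by -0.13. The groups did not overlap for 6 of these 10, with 5 lower in Hdac3-Isl1KO and 1 higher. That is 60%, against 21.8% of all genes and 29.5% of those above the median row, where 9 of the 10 lay. The 14 regulators of the protocadherin clusters included the cohesin release factor Wapl (-0.21), the cohesin loader Nipbl (-0.13) and the cohesin subunit Rad21 (0.11). Of 11 WAVE complex and protocadherin-linked kinase genes, Ptk2b (-0.14), Ret (0.14) and Cyfip2 (0.19) had the smallest p, and 0 had an unadjusted limma p under 0.05.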

How the data were processed

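The values deposited by the authors are log2 expression values of 6 arrays. Oligo and RMA are the tools listed per the submitters' processing notes. RMA removes background, equalises the distributions of arrays and summarises probes. Tool versions, annotation and build are not stated in what was used here. Per the labels' protocols, 100 ng of total RNA went into each cDNA. Neither the number of hearts per pool nor separate litters are given, so p-values cover only the variation among these pools, in part perhaps technical. No detection calls or array batches were used here. The number of arrays limits the precision, and signals of different probes are not compared as levels.

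Of 41345 rows, 23521 carried 1 symbol in the platform annotation, 1814 several and 16010 none listed; 23328 of the first matched a RefSeq gene table (assembly GRCm38.p6) by gene number, with 0 symbols changed. Taking the brightest row per gene left 22180 genes, 18964 protein-coding, with no filter on dim genes. All 56 members were tested, and 3 had several rows. Limma 3.58.1 (R 4.3.3; lmFit, eBayes, two-sided, 6.92 degrees of freedom with the prior) gave p-values, adjusted by Benjamini-Hochberg over the 22180 genes, with 0.05 as the threshold. The steps were tested on simulated data. Figures used matplotlib 3.10.9 in Python 3.11.15.

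The members, classes and lists were chosen with earlier results of these data known, and no test over a list was made. The rule gave differences of all members outside the clusters, with values by array for members past the threshold and, per class, the 2 smallest p-values and the brightest row. Values by array of other members and of partner genes were chosen after they were seen. Of each partner list the 3 smallest p-values were named. Alternatives covered normalization, dim genes, rows, the prior, array weights, a replicate block, protein-coding genes and single arrays left out. Testing all rows was added after seeing the data.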

Additional observations from a re-analysis of the deposited data

Results flagged for a closer look

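A row annotated to both Pcdhga10 and the predicted gene Gm19774 lay outside the comparison of named genes, since it has several symbols. It stood higher in every Hdac3-Isl1KO array, at 11.99, 11.97 and 12.04, against 11.54, 11.62 and 11.60 in Hdac3-flox/flox, a log2 difference of 0.41 (95% interval 0.24 to 0.59). Tested with all 41345 rows, its limma adjusted p was 0.146, where 31 rows passed (adjusted p under 0.05). The row of Pcdhga10 alone differed by -0.36.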

How the results depend on the processing

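Cdh11 remained lower, and was the 1 cadherin gene called, under 9 alternatives: quantile normalization, centred arrays, both filters on dim genes, averaged rows, both trended priors, array weights and protein-coding genes alone. The count was 0 with all rows tested, with a replicate block and with any single array left out, for the 56 genes and for the classical members alike; the cause was not tested. Over all genes the count of 95 became 0 with the replicate block, 149 with quantile normalization, 235 and 617 without genes below the 25th percentile or median row, 866 with either trended prior, 243 with array weights and 2 to 25 with single arrays left out (25 without Hdac3-flox/flox replicate 2). Replicate numbers are not stated to pair pools. Deviations of same-numbered arrays correlated at -0.01, -0.09 and 0.04, and 1 of 6 arrays correlated best with its own number. The block changed no other call named in the report among members.

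The partner lists gained 3 calls without genes below the median row (Dsc2, Dsg2 and Nectin1) and 4 with either trended prior (the same and Adam10). Hdac3, at -0.47, passed without genes below the 25th percentile or median row and with either trended prior, and at -0.46 with array weights.

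Class medians have no test. That of other cadherins became 0.069 and -0.22 without genes below the 25th percentile or median row, where 4 and 1 members were left, and 0.097 to 0.16 with single arrays left out. That of non-clustered protocadherins became 0.13 and -0.044 under these filters, with 8 and 4 members left, 0.024 with array weights and -0.027 to 0.072 with single arrays left out, so its sign rests on Hdac3-flox/flox replicate 2. The clustered median became -0.36 above the median row, which is Pcdhga10 alone. Its sign turned without Hdac3-Isl1KO replicate 2 (0.0019), without Hdac3-flox/flox replicate 2 (0.016) and with array weights (0.0045). The classical median stayed below 0 under all 16 alternatives, from -0.12 to -0.037. Among these, the replicate block, both trended priors and protein-coding genes alone leave the differences unchanged, so they could not move any class median. Dim signal limits 27 of the 56 genes, whose rows lay below the 25th percentile.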
